A study of Homo sapiens with 19 samples.

Results

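The genes of the TGF-beta and BMP pathway were followed through the knockdown of BRG1 or MITF in melanoma cells and melanocytes. The set comprises 44 genes listed by name: ligands, receptors, secreted antagonists, latent binding proteins, SMADs, the ID genes and the matrix gene TGFBI. They were matched by symbol to Ensembl identifiers, without use of any measured value, and all 44 were found among the 44717 identifiers listed for any sample. The list itself was chosen with earlier results of these data known. TGF-beta family ligands are secreted proteins that bring together type I and type II serine/threonine kinase receptors, which phosphorylate SMAD proteins. TGF-beta and activins act mainly through SMAD2 and SMAD3 and BMPs through SMAD1, SMAD5 and SMAD9, which join SMAD4 in the nucleus, while antagonists hold ligands away from the receptors. The ID genes are classical BMP targets and encode partners that keep bHLH factors from binding DNA, and in pigment cells TGF-beta is known to lower the expression of MITF and of pigment enzymes.

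RNA-seq counts were examined from 19 samples in 7 groups. 501Mel is a human melanoma line, and Hermes 3A is an immortalised human melanocyte line. Cells were infected with lentiviral pLKO vectors expressing a short hairpin RNA (shRNA) against BRG1 (gene SMARCA4, the ATPase of a chromatin-remodelling complex), against MITF (the transcription factor of the melanocyte lineage) or a scramble control. 501Mel cells with shBRG1 (3 samples) have the control shSCR1 (3 samples), and those with shMITF (2 samples) have the control shSCR2 (2 samples). Hermes 3A cells with shBRG1 (3 samples) and with shMITF (3 samples) share a single control, shSCR (3 samples), so that both of their comparisons rest on the same control samples. Each cell type is represented by 1 line and each knockdown by 1 hairpin. Hermes 3A medium also held TPA, cholera toxin, stem cell factor and endothelin-1, so that line and medium cannot be told apart.

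The samples held from 29158502 to 78857900 reads assigned to genes. SMARCA4 was at 35.8 to 40.5 CPM (reads scaled to a common library size) with shBRG1 in 501Mel cells against 178 to 193 with shSCR1, and at 44.3 to 47.4 against 227 to 254 in Hermes 3A cells. MITF was at 493 and 545 CPM with shMITF in 501Mel cells against 1046 and 1184 with shSCR2, and at 455 to 718 against 1012 to 1117 in Hermes 3A cells. SOX10, a factor of the melanocyte lineage, was at 87.9 to 95.1 CPM with shBRG1 against 464 to 496 with shSCR1 in 501Mel cells. MITF itself averaged 205 CPM with shBRG1 against 574 with shSCR1 in 501Mel cells, and 773 against 1053 in Hermes 3A cells. The part of this lower MITF level in the changes with shBRG1 was not tested. All 7 melanocyte lineage markers averaged above 1 CPM in every group, and their summed level was lower in each knockdown (3107 to 3401 CPM with shBRG1 against 29283 to 31484 with shSCR1 in 501Mel cells). Not every marker fell with shMITF. TYR averaged 814 CPM with shMITF against 605 with shSCR2 in 501Mel cells. SOX10 averaged 794 CPM with shMITF against 665 with shSCR in Hermes 3A cells, with samples that overlapped. In each line the other markers averaged lower with shMITF. Samples differed most within Hermes 3A shMITF, where the biological coefficient of variation was 31.5%, followed by 501Mel shMITF (18.2%) and shSCR2 (16.9%), and it was 4.58% to 5.97% in the other 4 groups. Nothing in the labels says that samples of a group were separate cultures, so that p-values measure the spread between these samples. In these bulk samples, fewer cells of a type and less RNA per cell cannot be told apart.

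The scramble group named above for each knockdown served as its control, and a gene was called changed at an adjusted p under 0.05 (edgeR quasi-likelihood test, Benjamini-Hochberg over all genes tested) and an absolute log2 fold change over 1. Values in parentheses beside a gene are log2 fold changes ± SE from this test, and levels are CPM scaled by TMM factors. In 501Mel cells shBRG1 raised 10 and lowered 10 of the 41 pathway genes tested, or 48.8%, while 39.1% of all genes tested were called (21.7% higher and 17.4% lower). With shMITF in 501Mel cells 10 rose and 2 fell of 40 tested (30.0%, against 8.99% of all genes, 5.59% higher and 3.40% lower). In Hermes 3A cells 8 rose and 2 fell with shBRG1 of 41 tested (24.4%, against 9.26%, 5.78% higher and 3.47% lower), and 6 rose and 2 fell with shMITF of 41 tested (19.5%, against 7.39%, 3.35% higher and 4.04% lower). The median log2 fold change of the tested pathway genes was -0.18, 0.45, 0.21 and 0.13 in these 4 comparisons, in this order, and that of all genes 0.05, 0.01, 0.01 and 0.05. INHBA, ID3 and TGFBI rose and FSTL1 fell in all 4 comparisons. BMPR2 rose in 1 comparison and fell in 1, LTBP1 rose in 2 and fell in 1, 18 of the 44 genes were called in none, and 26 were called in at least 1.

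**Figure D1:**
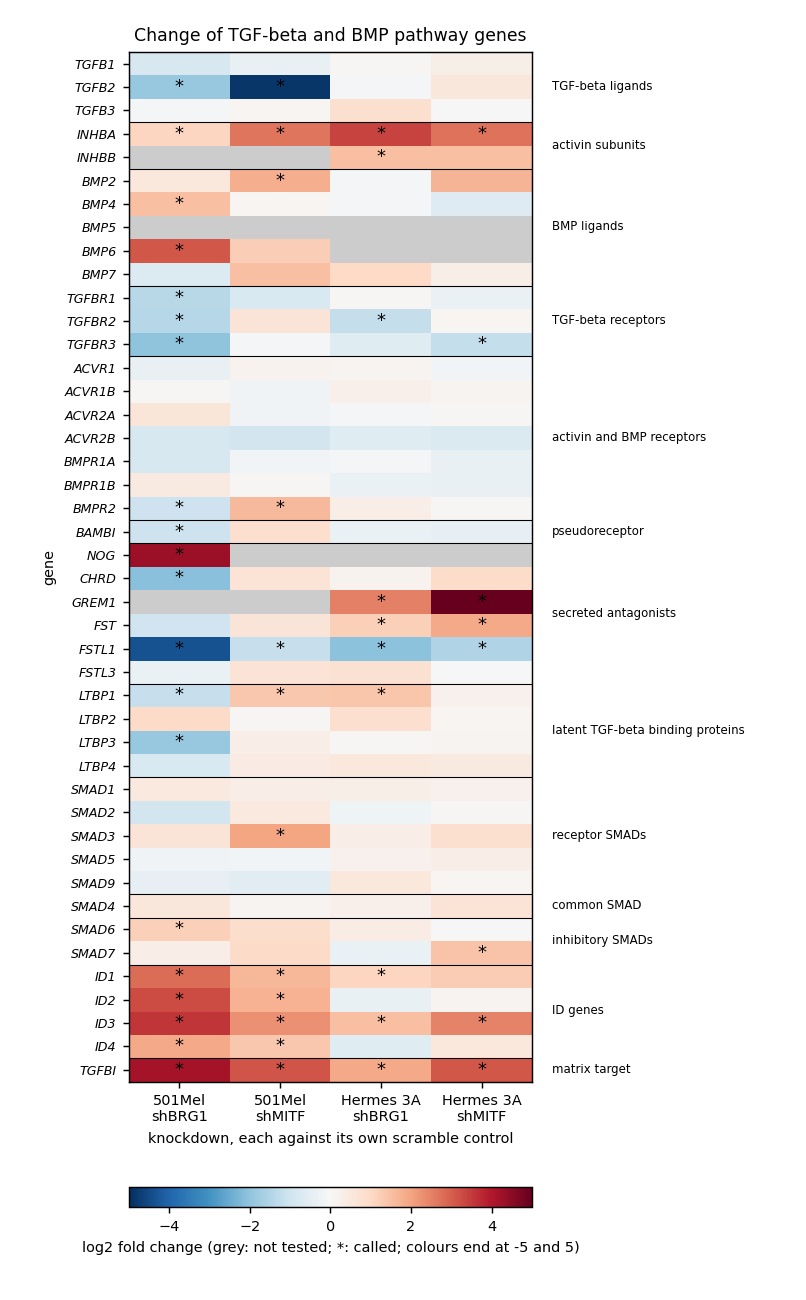
Log2 fold change of the 44 pathway genes (rows, grouped by role) in the 4 knockdown comparisons (columns), with red for higher and blue for lower in the knockdown, grey for not tested and an asterisk for a called change. INHBA, ID3 and TGFBI are red and FSTL1 is blue with an asterisk in every column, while the receptor SMADs are pale apart from SMAD3 with shMITF in 501Mel cells.

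The split of calls depends on scaling. With library sizes in place of TMM factors the median log2 fold change of all genes moved to 0.40 with shBRG1 and 0.11 with shMITF in 501Mel cells, and to 0.11 and 0.14 in Hermes 3A cells. Higher genes then made up 72.0%, 72.1%, 72.5% and 56.0% of the calls, against 55.5%, 62.2%, 62.5% and 45.3% with TMM. The pathway genes became 11 higher and 7 lower with shBRG1 in 501Mel cells, where LTBP1 (-0.79), BAMBI (-0.68) and BMPR2 (-0.67) no longer passed, and no pathway gene called with TMM changed sign. With shBRG1 in 501Mel cells set against shSCR2, a comparison added after the data were seen, LTBP1 (-0.39), BAMBI (-0.29), BMP4 (0.40), SMAD6 (0.14), TGFBR2 (-0.61), LTBP3 (-0.48), ID4 (0.60) and CHRD, whose sign turned (0.30, adjusted p = 0.17), were no longer called.

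The sequences before the RefSeq starts of the ID genes, called together in both 501Mel knockdowns, and of INHBA, TGFBI and FSTL1, called like ID3 in all 4 knockdown comparisons, are shown for these patterns. Each is the 250 bases before the RefSeq transcription start (GRCh38.p14), written 5′ to 3′ in the direction of the gene. Capitals mark the letters GGCGCC, a GC-rich SMAD element, and CAGAC or its reverse complement GTCTG, the SMAD box. The windows lie at chr20:31605039-31605288 on the plus strand (ID1), chr2:8681806-8682055 on the plus strand (ID2), chr1:23559502-23559751 on the minus strand (ID3), chr6:19837120-19837369 on the plus strand (ID4), chr5:136028738-136028987 on the plus strand (TGFBI), chr7:41703091-41703340 on the minus strand (INHBA) and chr3:120450993-120451242 on the minus strand (FSTL1). By GENCODE 29 coordinates the ID4 window lies before the gene, those of ID1 and TGFBI run into it, and those of ID2, ID3, INHBA and FSTL1 lie inside the gene's own span.
ID1: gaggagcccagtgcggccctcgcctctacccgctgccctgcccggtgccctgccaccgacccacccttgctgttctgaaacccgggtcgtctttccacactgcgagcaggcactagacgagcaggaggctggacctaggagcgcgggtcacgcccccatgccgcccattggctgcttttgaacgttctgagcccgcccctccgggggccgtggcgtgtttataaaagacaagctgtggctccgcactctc
ID2: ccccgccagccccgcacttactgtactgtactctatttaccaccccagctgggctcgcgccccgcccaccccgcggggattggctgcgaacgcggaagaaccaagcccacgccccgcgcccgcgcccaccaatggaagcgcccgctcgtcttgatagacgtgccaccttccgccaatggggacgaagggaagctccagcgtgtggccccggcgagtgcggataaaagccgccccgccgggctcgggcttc
ID3: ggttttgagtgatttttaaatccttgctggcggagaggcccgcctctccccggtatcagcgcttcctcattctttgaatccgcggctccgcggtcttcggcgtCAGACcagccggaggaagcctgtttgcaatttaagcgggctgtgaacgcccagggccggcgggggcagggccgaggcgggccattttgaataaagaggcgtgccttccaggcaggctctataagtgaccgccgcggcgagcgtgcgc
ID4: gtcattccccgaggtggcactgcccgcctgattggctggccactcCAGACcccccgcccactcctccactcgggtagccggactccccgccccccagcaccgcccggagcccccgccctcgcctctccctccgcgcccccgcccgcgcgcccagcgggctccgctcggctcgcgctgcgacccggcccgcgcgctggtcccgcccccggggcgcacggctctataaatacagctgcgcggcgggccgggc
TGFBI: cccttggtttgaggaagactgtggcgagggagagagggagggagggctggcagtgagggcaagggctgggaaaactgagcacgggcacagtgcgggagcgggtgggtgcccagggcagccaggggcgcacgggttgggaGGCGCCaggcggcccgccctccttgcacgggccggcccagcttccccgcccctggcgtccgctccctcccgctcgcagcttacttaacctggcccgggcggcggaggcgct
INHBA: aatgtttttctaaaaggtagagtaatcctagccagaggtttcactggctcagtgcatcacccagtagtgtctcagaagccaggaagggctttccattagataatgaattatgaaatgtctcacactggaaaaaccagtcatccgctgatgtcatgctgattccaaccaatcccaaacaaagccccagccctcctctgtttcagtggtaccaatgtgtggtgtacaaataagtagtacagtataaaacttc
FSTL1: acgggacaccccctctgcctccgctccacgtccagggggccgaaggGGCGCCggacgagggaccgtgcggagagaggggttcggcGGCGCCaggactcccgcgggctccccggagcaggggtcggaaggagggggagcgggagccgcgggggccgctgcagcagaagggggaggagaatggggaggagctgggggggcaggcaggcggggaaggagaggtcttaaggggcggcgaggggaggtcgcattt
A SMAD box lies at -147 to -143 from the start of ID3 and at -205 to -201 from that of ID4, and GGCGCC lies at -111 to -106 in TGFBI and at -204 to -199 and -165 to -160 in FSTL1. None of the windows of ID1, ID2 and INHBA holds either motif. Of all 35116 promoter windows of this length in the table, 38.0% hold a SMAD box and 16.4% hold GGCGCC, both strands counted. The E-boxes CATGTG (or CACATG) and CACGTG, letters that MITF is known to bind, were in none of the 7 windows and in 9.42% and 6.34% of all windows. These matches describe letters and not binding.

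The ligands moved in both directions. TGFB2, which encodes one of the TGF-beta isoforms, was the ligand with the largest fall. Its levels were 8.54, 8.26 and 8.68 CPM with shSCR1 and 2.30, 2.36 and 2.50 with shBRG1, and 4.67 and 4.73 with shSCR2 and 0.132 and 0.174 with shMITF in 501Mel cells. Both 501Mel knockdowns lay below all samples of their control, with log2 fold changes of -1.89 ± 0.10 (SE, adjusted p = 1.39e-14) and -4.87 ± 0.41 (SE, adjusted p = 0.000264). TGFB2 in Hermes 3A cells was at 0.469 to 0.547 CPM with shSCR, 0.392 to 0.554 with shBRG1 and 0.380 to 1.11 with shMITF, ranges that overlapped. GENCODE 29 places 26.6% of the exon bases of TGFB2 in TGFB2-OT1 on the same strand, and how reads there were assigned is not given in the sources used here. TGFB1 and TGFB3 were called in none of the 4 knockdown comparisons. With shBRG1 in 501Mel cells TGFB1 passed the p threshold below the fold threshold (-0.80 ± 0.08, adjusted p = 9.75e-10), and so did TGFB3 in Hermes 3A cells (0.81 ± 0.14, adjusted p = 7.93e-06).

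INHBA, which encodes the beta A subunit of activin A, rose in every knockdown but from very different levels. In the melanocytes it was at 4.95, 5.87 and 6.24 CPM with shSCR, 60.9, 55.4 and 59.6 with shBRG1 and 71.1, 16.3 and 23.5 with shMITF. Every knockdown sample lay above every control sample, and the 3 shMITF samples were spread over a wide range. The log2 fold changes were 3.38 ± 0.08 (SE, adjusted p = 1.44e-23) and 2.72 ± 0.50 (SE, adjusted p = 0.00942). Without the shMITF replicate 1 the latter was 1.82, and without any 1 of the 3 shSCR samples its adjusted p was between 0.0539 and 0.0819. With no filter on low counts it was 0.113. In 501Mel cells INHBA was at 1.72, 1.48 and 1.52 CPM with shSCR1 and 3.65, 3.74 and 3.06 with shBRG1 (1.08 ± 0.14, adjusted p = 1.5e-07). This value lies near the fold threshold. The call was lost in a test against that threshold (glmTreat, adjusted p = 0.314) and against both scramble groups pooled (1.82, adjusted p = 0.125). INHBA was at 0.0979 and 0.0408 CPM with shSCR2, 3 counts in each sample, and at 0.374 and 0.386 with shMITF (2.67 ± 0.62, adjusted p = 0.0167). That call rests on these few counts: without shSCR2 replicate 2 the value was 1.95 (adjusted p = 0.2), without shMITF replicate 2 the adjusted p was 0.07, and against shSCR1 the value was -2.02 (adjusted p = 0.000146). INHBB, the beta B subunit, rose with shBRG1 in Hermes 3A cells (1.49 ± 0.32, adjusted p = 0.000245) on 42 to 64 counts per sample against 7 to 28, and its value with shMITF was 1.52 ± 0.46 (SE, adjusted p = 0.0553).

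Among the BMP ligands, BMP6 rose with shBRG1 in 501Mel cells, from 0.409, 0.323 and 0.380 CPM to 3.31, 3.24 and 3.35 (3.09 ± 0.18, adjusted p = 1.06e-13), with no overlap between groups. BMP4 rose there too, on 77 to 116 counts per sample against 22 to 30 (1.50 ± 0.19, adjusted p = 2.19e-07). Against shSCR2 the BMP4 value was 0.40 (adjusted p = 0.199) and was not called. BMP6 was called higher with shSCR2 than with shSCR1, on 55 counts in each sample against 20, 17 and 13. The size of its rise with shBRG1 thus depends on the control. BMP2 rose with shMITF in 501Mel cells on 23 counts in each sample against 5 and 9 (1.81 ± 0.49, adjusted p = 0.0309), a call that was lost without any 1 of the 4 samples (adjusted p between 0.0779 and 0.232). The Hermes 3A BMP2 samples with shMITF were at 8.43, 36.1 and 8.72 CPM against 5.42, 6.37 and 5.08, all above the controls but with 1 sample far above the others, and the change was not called (1.69 ± 0.54, adjusted p = 0.0635). BMP7 was called in none of the 4, with values from -0.67 ± 0.29 with shBRG1 to 1.51 ± 0.64 with shMITF in 501Mel cells (SE). BMP6 had at most 7 counts in the Hermes 3A shSCR samples and was tested in neither Hermes 3A comparison. BMP5 had 0 counts in every scramble sample and in Hermes 3A shBRG1, was not listed for Hermes 3A shMITF, and had 2, 7 and 4 counts with shBRG1 and 1 and 0 counts with shMITF in 501Mel cells, too few to be tested.

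**Figure D2:**
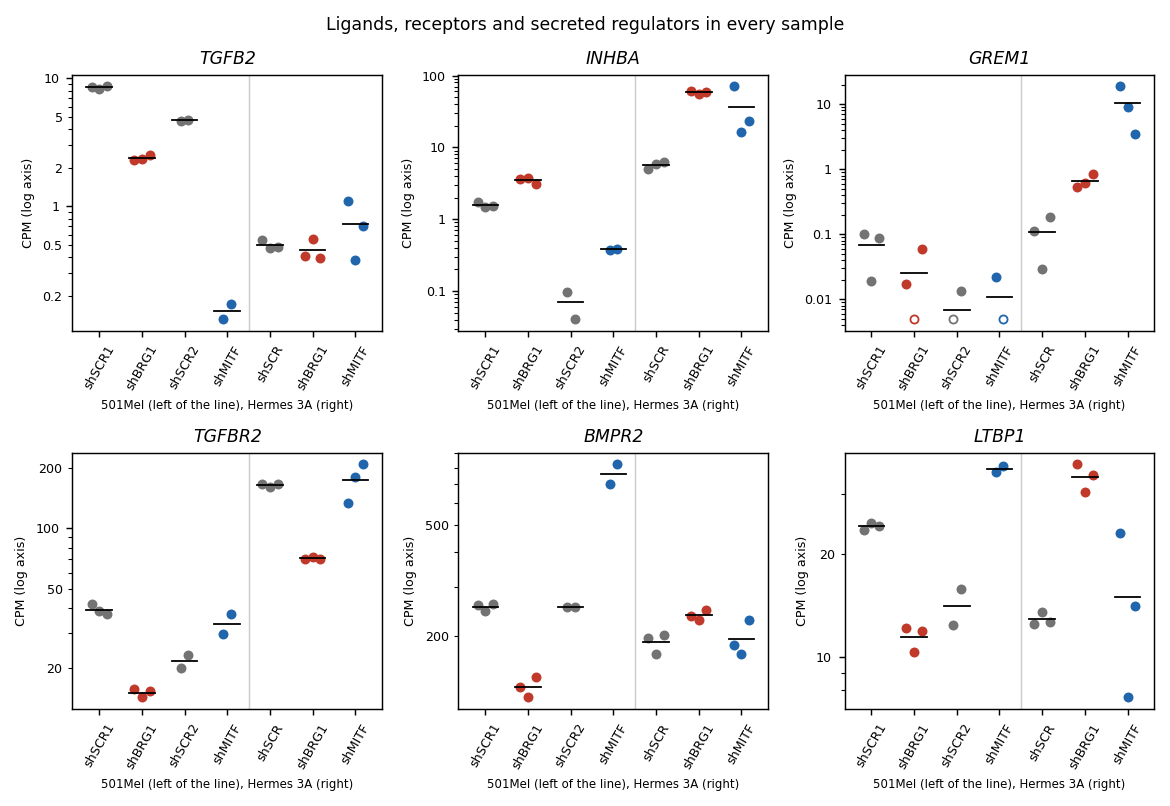
CPM (log axis) of TGFB2, INHBA, GREM1, TGFBR2, BMPR2 and LTBP1 in every sample of the 7 groups, with a point per sample, a bar at the group mean and open circles for samples with 0 counts, drawn at 0.005 CPM. The 2 BMPR2 samples with shMITF in 501Mel cells, at 700.1 and 821 CPM, lie above all other samples, and the GREM1 samples with shMITF in Hermes 3A cells spread from 3.48 to 18.9 CPM.

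All 3 receptors for TGF-beta were called lower with shBRG1 in 501Mel cells, where 17.4% of all genes tested were called lower. TGFBR1, the type I receptor, was at 127, 118 and 121 CPM with shSCR1 and 51.0, 45.3 and 49.2 with shBRG1 (-1.40 ± 0.05, adjusted p = 2.22e-17). TGFBR2, the type II receptor, was at 41.7, 38.7 and 37.3 and 15.7, 14.3 and 15.4 CPM (-1.44 ± 0.06, adjusted p = 3.05e-16). TGFBR3, the co-receptor betaglycan, was at 118, 122 and 123 and 35.2, 28.3 and 31.9 CPM (-1.99 ± 0.06, adjusted p = 5.62e-19). For each of them, every shBRG1 sample lay below every shSCR1 sample. Against shSCR2 the TGFBR2 value was -0.61 and was not called. In Hermes 3A cells TGFBR2 also fell with shBRG1, from 167, 162 and 167 to 70.2, 71.8 and 70.2 CPM (-1.21 ± 0.04, adjusted p = 5.13e-20), but was at 134, 179.9 and 208 CPM with shMITF, a range that included the controls. TGFBR3 fell with shMITF there, to 29.7, 47.0 and 47.8 CPM from 97.3, 95.7 and 96.9 (-1.19 ± 0.18, adjusted p = 0.00483). With shMITF in 501Mel cells none of the 3 was called, and TGFBR2 was at 29.6 and 37.1 CPM against 20.1 and 23.3 (0.66 ± 0.18, adjusted p = 0.0282).

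Of the 7 activin and BMP receptors, BMPR2 was the one called in any of the 4 knockdown comparisons. BMPR2, the type II receptor for BMPs, was at 258, 246 and 259 CPM with shSCR1 and 131, 120.4 and 143 with shBRG1, and at 253 and 253 with shSCR2 and 700.1 and 821 with shMITF in 501Mel cells. Both scramble groups lay at nearly the same level, the shBRG1 samples below it and the shMITF samples above it. The log2 fold changes were -1.02 ± 0.05 (SE, adjusted p = 2.48e-14) and 1.63 ± 0.14 (SE, adjusted p = 0.000265). The first sits at the fold threshold and was -0.97 without shBRG1 replicate 2. BMPR2 in Hermes 3A cells was at 172 to 201 CPM with shSCR, 228 to 248 with shBRG1 (0.33 ± 0.05, adjusted p = 6.45e-07) and 172 to 227 with shMITF. The type I receptors ACVR1, ACVR1B, BMPR1A and BMPR1B and the activin type II receptors ACVR2A and ACVR2B had log2 fold changes between -0.93 (ACVR2B with shMITF in 501Mel cells) and 0.61 (ACVR2A with shBRG1 in 501Mel cells). BAMBI, a pseudoreceptor that lacks the kinase and dampens signalling, was at 246, 228 and 221 CPM with shSCR1 and 117, 119 and 122 with shBRG1 (-1.02 ± 0.05, adjusted p = 2.29e-15), without overlap and at the fold threshold.

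Secreted regulators included the fall seen in all 4 comparisons and the largest rise. FSTL1, a secreted follistatin-like glycoprotein, was at 756, 740.2 and 726 CPM with shSCR1 and 38.0, 36.8 and 38.1 with shBRG1, and at 202 and 179.9 with shSCR2 and 75.2 and 92.6 with shMITF in 501Mel cells. The log2 fold changes were -4.36 ± 0.05 (SE, adjusted p = 1.29e-25) and -1.14 ± 0.15 (SE, adjusted p = 0.00163), and the latter was -0.99 without shMITF replicate 1. FSTL1 in Hermes 3A cells was at 259, 253 and 260.1 CPM with shSCR, 60.8, 63.0 and 63.3 with shBRG1 (-2.03 ± 0.04, adjusted p = 1.61e-24) and 111, 81.1 and 75.1 with shMITF (-1.51 ± 0.16, adjusted p = 0.00112). In every comparison all knockdown samples lay below all control samples. The precursor of a microRNA, MIR198, takes up 0.7% of the exon bases of FSTL1 and cannot be separated from it in these counts.

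GREM1, which encodes the BMP antagonist gremlin, was near the limit of detection with shSCR in Hermes 3A cells, at 0.114, 0.0293 and 0.182 CPM (5, 1 and 8 counts). It was at 0.541, 0.605 and 0.854 CPM with shBRG1 (2.53 ± 0.47, adjusted p = 3.49e-05) and at 18.9, 9.03 and 3.48 CPM with shMITF (6.52 ± 0.76, adjusted p = 0.00162). All knockdown samples lay above all controls, and the shMITF value was 5.76 without shMITF replicate 1. In 501Mel cells GREM1 had at most 5 counts in any sample and was not tested against the controls. Of the 6 fibroblast markers, COL1A2, LUM and PDGFRA averaged above 1 CPM in both Hermes 3A knockdowns, and COL1A2 and LUM did with shSCR. Their summed level was 71.3 to 80.0 CPM with shSCR, 139 to 148 with shBRG1 and 113 to 218 with shMITF, while COL3A1 had at most 4 counts in any of these samples. COL1A2 made up most of this sum and rose in both knockdowns (1.06 ± 0.05 and 1.10 ± 0.27, SE), whereas LUM gave -0.79 ± 0.12 and -0.49 ± 0.73. In 501Mel cells the sum was 3.56 to 4.97 CPM with shSCR1 and 16.1 to 19.5 with shBRG1. The part of other cell types in the rise of GREM1, INHBA and TGFBI was not tested. Of the 5 keratinocyte markers, KRT1, KRT5 and KRT14 had 0 counts with shSCR and shBRG1 in Hermes 3A cells and were not listed for shMITF, and TP63 was under 1 CPM in every Hermes 3A sample. KRT10 was at 31.9 to 34.4 CPM with shSCR, 27.3 to 29.5 with shBRG1 and 43.2 to 64.5 with shMITF (0.64 ± 0.17, adjusted p = 0.0366), and the summed level of the list was 32.3 to 35.0, 27.7 to 30.0 and 43.7 to 65.3 CPM.

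FST, which encodes follistatin, an activin antagonist, rose in both Hermes 3A knockdowns, from 1.30, 1.94 and 0.752 CPM to 3.01, 2.79 and 3.19 with shBRG1 (1.21 ± 0.22, adjusted p = 2.24e-05) and 7.41, 4.28 and 3.01 with shMITF (1.91 ± 0.44, adjusted p = 0.0216). The groups did not overlap. Without shSCR replicate 3 the values were 0.91 with shBRG1 and 1.61 with shMITF (adjusted p = 0.0942), and without shSCR replicate 1 the adjusted p with shMITF was 0.0812. In 501Mel cells FST was at 36.0 to 37.7 CPM with shSCR1 and 18.2 to 19.9 with shBRG1, just short of the fold threshold (-0.99 ± 0.06, adjusted p = 1.31e-13). CHRD, which encodes the BMP antagonist chordin, fell with shBRG1 in 501Mel cells from 11.5, 10.8 and 10.6 to 2.84, 2.96 and 2.23 CPM (-2.09 ± 0.10, adjusted p = 3.37e-15). This fall depends on the control, since CHRD was also at 2.25 and 1.92 CPM with shSCR2, and shBRG1 against shSCR2 gave 0.30 (adjusted p = 0.17). NOG, which encodes noggin, rose with shBRG1 in 501Mel cells on 57, 60 and 43 counts against 1, 5 and 0 (4.29 ± 0.43, adjusted p = 2.63e-09), and the value was 5.97 without shSCR1 replicate 2. NOG was too low to be tested in the other 3 comparisons, and INHBB in both of 501Mel cells. FSTL3, a further activin antagonist, was called in none of the 4 and reached 0.77 ± 0.05 (SE, adjusted p = 2.39e-11) with shBRG1 in Hermes 3A cells.

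The latent TGF-beta binding proteins, which tether TGF-beta to the matrix, were called in different directions. LTBP1 was at 23.5, 24.7 and 24.2 CPM with shSCR1 and 12.1, 10.4 and 11.9 with shBRG1, and at 12.4 and 15.8 with shSCR2 and 34.8 and 36.2 with shMITF in 501Mel cells. It fell with shBRG1 (-1.14 ± 0.07, adjusted p = 2.71e-13) and rose with shMITF (1.37 ± 0.17, adjusted p = 0.00128), each time without overlap. The rise was 0.58 against shSCR1 and 0.85 (adjusted p = 0.142) against both scramble groups pooled, and was then not called. The fall was -0.39 against shSCR2, also not called. With shBRG1 in Hermes 3A cells the direction was the opposite, from 12.5, 13.6 and 12.7 to 36.6, 30.4 and 34.1 CPM (1.40 ± 0.07, adjusted p = 1.43e-15), and with shMITF the samples were scattered on both sides of the controls at 23.1, 7.64 and 14.1 CPM. LTBP3 fell with shBRG1 in 501Mel cells from 75.3, 72.7 and 68.4 to 21.1, 21.0 and 19.5 CPM (-1.88 ± 0.05, adjusted p = 2.78e-19). Against shSCR2 the LTBP3 value was -0.48 and was not called. LTBP2 and LTBP4 were called in none of the 4. With shBRG1 LTBP2 gave 0.96 ± 0.17 in 501Mel cells and 0.82 ± 0.09 in Hermes 3A cells, and LTBP4 gave -0.77 ± 0.07 and 0.54 ± 0.06 (SE).

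Of the SMADs, SMAD3, SMAD6 and SMAD7 were each called in 1 of the 4 knockdown comparisons. The common SMAD, SMAD4, and the receptor SMADs SMAD1, SMAD2, SMAD5 and SMAD9 were called in none of the 4 knockdown comparisons, and their log2 fold changes ran from -0.91 (SMAD2 with shBRG1 in 501Mel cells) to 0.68 (SMAD4 with shMITF in Hermes 3A cells). SMAD3, which carries TGF-beta and activin signals, rose with shMITF in 501Mel cells, from 10.1 and 14.2 to 31.5 and 61.3 CPM (1.97 ± 0.37, adjusted p = 0.0172). The samples of this pair of groups did not overlap, but the call was lost without either shSCR2 sample (adjusted p = 0.356 and 0.217), and against shSCR1 the value was 0.50 (adjusted p = 0.105). In the other 3 comparisons SMAD3 gave 0.65 ± 0.05, 0.34 ± 0.05 and 0.79 ± 0.14, all past the p threshold and under the fold threshold. SMAD6, an inhibitory SMAD of BMP signalling, rose with shBRG1 in 501Mel cells from 5.36, 4.86 and 4.65 to 12.6, 10.9 and 12.3 CPM (1.20 ± 0.09, adjusted p = 1.14e-11). This rise depends on the control: it was 0.14 against shSCR2 (adjusted p = 0.458) and 0.74 against both scramble groups pooled (adjusted p = 0.0897). SMAD7, an inhibitory SMAD induced by TGF-beta, rose with shMITF in Hermes 3A cells from 9.21, 9.65 and 9.39 to 33.2, 23.6 and 18.5 CPM (1.44 ± 0.22, adjusted p = 0.00445), while it was at 8.67, 6.16 and 7.66 CPM with shBRG1 (-0.32 ± 0.10, adjusted p = 0.0102).

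In 501Mel cells all 4 ID genes, whose promoters are printed above, were called higher with shBRG1 and all 4 with shMITF. Of all genes tested, 21.7% and 5.59% were called higher. All 4 ID genes were also called higher with shSCR2 than with shSCR1. ID1 was at 4.80, 4.48 and 4.32 CPM with shSCR1 and 33.1, 34.6 and 30.1 with shBRG1, and at 11.0 and 9.07 with shSCR2 and 35.0 and 26.2 with shMITF. ID2 was at 8.01, 8.44 and 8.44 CPM with shSCR1 and 84.3, 85.3 and 78.8 with shBRG1, and at 13.4 and 24.1 with shSCR2 and 69.5 and 54.0 with shMITF. Every knockdown sample of both genes lay above its controls. ID3 was at 14.8, 14.5 and 14.8 CPM with shSCR1, 185, 194 and 167 with shBRG1, 62.8 and 42.7 with shSCR2 and 313 and 189 with shMITF. ID4 was at 7.95, 10.8 and 9.99 CPM with shSCR1 and 38.3, 36.2 and 37.4 with shBRG1, and at 15.9 and 30.0 with shSCR2 and 66.7 and 48.3 with shMITF. Again no knockdown sample reached down to its controls. With shBRG1 the log2 fold changes of ID1 to ID4 were 2.78 ± 0.08, 3.25 ± 0.06, 3.57 ± 0.06 and 1.90 ± 0.08 (SE, adjusted p at most 2.67e-16). With shMITF they were 1.65 ± 0.20, 1.75 ± 0.27, 2.28 ± 0.29 and 1.35 ± 0.31 (SE), with adjusted p of 0.00106, 0.00736, 0.00537 and 0.0288. The call of ID4 with shBRG1 was lost against shSCR2, and that with shMITF was lost without shSCR2 replicate 1 (0.97), shMITF replicate 1 (adjusted p = 0.0943) or shMITF replicate 2 (adjusted p = 0.0791).

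In Hermes 3A cells ID3 was called in both knockdowns, ID1 in 1 of them and ID2 and ID4 in neither. ID3 rose in both knockdowns, from 54.6, 57.4 and 48.6 CPM to 159, 149 and 144 with shBRG1 (1.51 ± 0.05, adjusted p = 8.6e-20) and 395, 212 and 285 with shMITF (2.50 ± 0.22, adjusted p = 0.00063), with every knockdown sample above the controls. ID1 was at 21.9, 16.9 and 17.7 CPM with shSCR, 41.1, 38.2 and 37.8 with shBRG1 and 69.7, 18.9 and 43.9 with shMITF. It was called with shBRG1 (1.06 ± 0.07, adjusted p = 7.8e-13), a value that was 0.996 without shSCR replicate 2, and not with shMITF (1.25 ± 0.39, adjusted p = 0.0584), where 1 sample lay among the controls. ID2 was at 182, 171 and 181 CPM with shSCR, and neither the 148, 129 and 132 CPM with shBRG1 (-0.38 ± 0.04, adjusted p = 3.32e-08) nor the 126, 272 and 177 CPM with shMITF (0.13 ± 0.25, adjusted p = 0.753) was called. ID4 was at 12.6, 12.9 and 13.0 CPM with shSCR, lower with shBRG1 at 9.10, 8.27 and 7.96 and higher with shMITF at 15.8, 22.1 and 17.0, both without overlap and without a call (-0.59 ± 0.08, adjusted p = 6.11e-07, and 0.54 ± 0.17, adjusted p = 0.0612).

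TGFBI, which encodes a matrix protein named for its induction by TGF-beta, rose in all 4 comparisons from low levels. In 501Mel cells it was at 0.654, 0.645 and 0.614 CPM with shSCR1 and 12.2, 12.1 and 11.3 with shBRG1 (4.14 ± 0.12, adjusted p = 2.71e-19), and at 0.555 and 0.326 with shSCR2 and 3.28 and 4.04 with shMITF (3.16 ± 0.41, adjusted p = 0.00152). In Hermes 3A cells it was at 1.41, 0.763 and 0.775 CPM with shSCR, 3.74, 3.43 and 3.76 with shBRG1 (1.88 ± 0.20, adjusted p = 2.8e-09) and 10.1, 6.15 and 8.80 with shMITF (3.10 ± 0.33, adjusted p = 0.00101). No knockdown sample overlapped its controls.

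**Figure D3:**
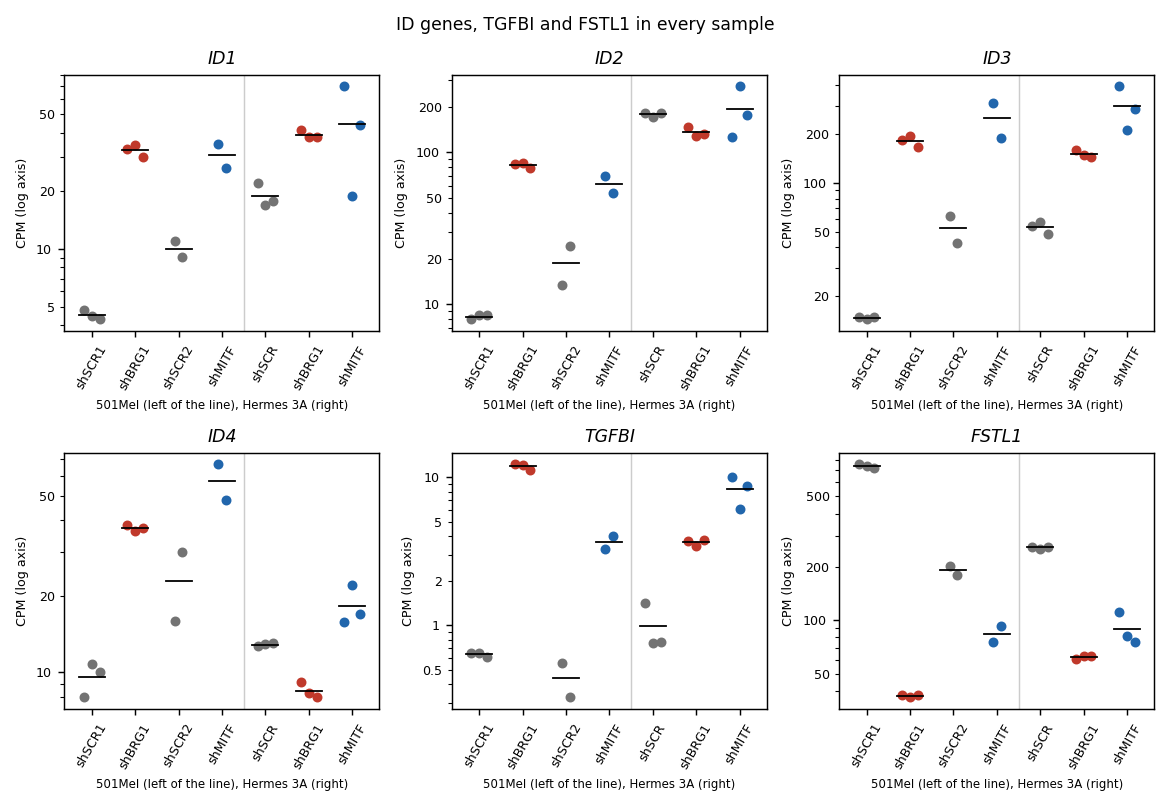
CPM (log axis) of ID1, ID2, ID3, ID4, TGFBI and FSTL1 in every sample of the 7 groups, with a point per sample and a bar at the group mean. In 501Mel cells the ID genes and TGFBI lie higher and FSTL1 lower in both knockdowns than in their own scramble samples, while in Hermes 3A cells ID2 with shMITF, from 126 to 272 CPM, spans the controls.

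The change with shBRG1 was then compared between the lines. In a contrast of the 501Mel minus the Hermes 3A change, 22 of 43 pathway genes tested passed (7 higher and 15 lower in 501Mel cells), against 26.9% of all genes (12.0% higher and 14.9% lower). The ID genes and TGFBI were all among the 7: the change in 501Mel cells exceeded that in Hermes 3A cells by 1.68 ± 0.12 (ID1), 3.60 ± 0.08 (ID2), 2.03 ± 0.08 (ID3), 2.46 ± 0.12 (ID4) and 2.24 ± 0.25 (TGFBI) on the log2 scale (SE, adjusted p at most 6.76e-10). Among the 15 were the receptors TGFBR1 (-1.47 ± 0.07), TGFBR3 (-1.42 ± 0.08) and BMPR2 (-1.38 ± 0.08). FSTL1 fell in both lines and further in 501Mel cells (-2.36 ± 0.06), whereas INHBA rose in both and further in Hermes 3A cells (-2.33 ± 0.16). LTBP1 fell in one line and rose in the other (-2.57 ± 0.10). TGFBR2 fell in both lines and its difference of -0.26 ± 0.07 did not reach the fold threshold. With library sizes in place of TMM 10 were higher and 14 lower (3692 and 2284 of 21697 for all genes). The contrast uses shSCR1 as the 501Mel control and was not recomputed with shSCR2. All 4 ID genes were called higher with shSCR2 than with shSCR1 (1.15 to 1.85), so the size of their differences depends on the scramble group. The fall of LTBP1 in 501Mel cells was -0.39 against shSCR2 and was not called.

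**Figure D4:**
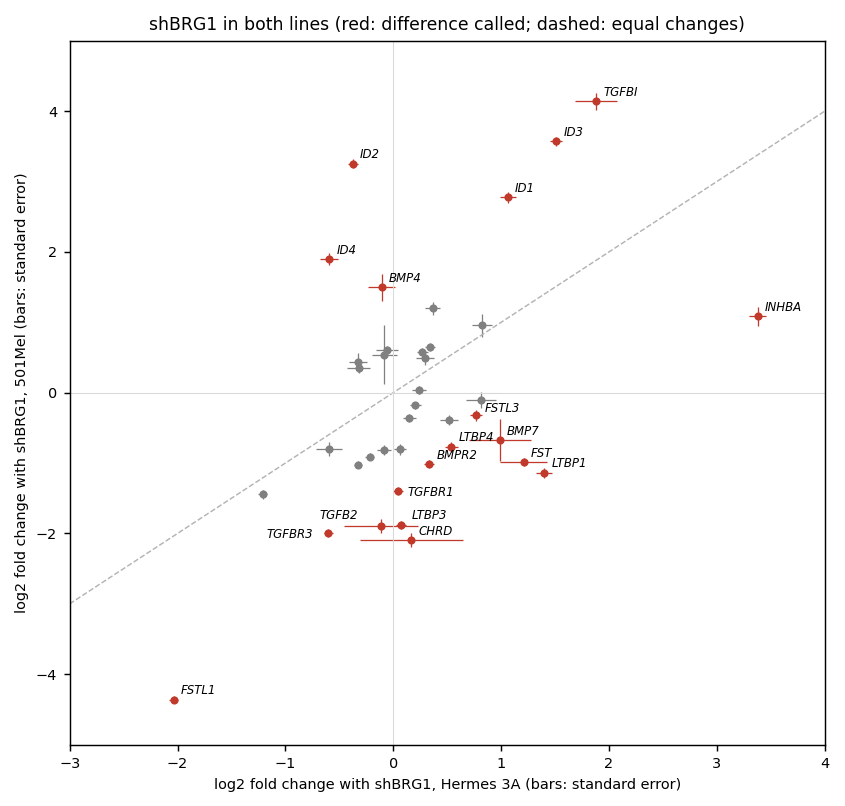
Effect of shBRG1 as a log2 fold change, with Hermes 3A cells on the horizontal axis and 501Mel cells on the vertical axis, for the 39 pathway genes tested in both, with standard errors, a dashed line for equal changes and red for the 19 genes with a called difference. ID2 and ID4 lie above 1 on the vertical axis and below 0 on the horizontal axis, and LTBP1 lies on opposite sides of 0.

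For shMITF the difference between lines was called for 2 of 42 genes, against 2.64% of all genes (2.00% higher and 0.643% lower): BMPR2 (1.56 ± 0.22, adjusted p = 0.00314) and TGFB2 (-5.45 ± 0.64, adjusted p = 0.00114). For the ID genes the differences were 0.39 ± 0.57, 1.60 ± 0.42, -0.22 ± 0.37 and 0.81 ± 0.35 (SE) for ID1 to ID4, none called, with adjusted p from 0.0659 to 0.801. The standard errors are larger here than for shBRG1, with fewer samples and a wider spread among them, and a missed threshold does not show that the lines responded alike.

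Both knockdowns were also set against each other within a line. In 501Mel cells, where each has its own control, 20 of 41 genes differed (6 higher and 14 lower with shBRG1), against 27.3% of all genes (11.8% higher and 15.5% lower). BMPR2 (-2.62 ± 0.13, adjusted p = 5.6e-10), LTBP1 (-2.47 ± 0.16, adjusted p = 7.29e-09), TGFBR2 (-2.07 ± 0.16, adjusted p = 4.08e-08) and BAMBI (-1.83 ± 0.13, adjusted p = 2.19e-08) were relatively lower with shBRG1, and TGFB2, which fell further with shMITF, was relatively higher (3.00 ± 0.29, adjusted p = 5.22e-07). ID1, ID2 and ID3 rose further above their own controls with shBRG1 (1.14 ± 0.18, 1.55 ± 0.28 and 1.30 ± 0.30, SE), although without shSCR2 replicate 1 ID1 gave 0.999 and ID3 gave 0.995 and without shMITF replicate 2 ID1 gave 0.994. ID4 and TGFBI gave 0.58 ± 0.35 and 0.96 ± 0.32, not called. Each contrast includes the difference between both scramble groups, where all 4 ID genes were called higher with shSCR2 (1.15 to 1.85). The levels of ID1 and ID3 with shMITF overlapped those with shBRG1, while those of ID2 lay below them. The Hermes 3A knockdowns were compared directly, and 7 of 41 genes differed, against 7.59% of all genes (4.80% higher and 2.79% lower). GREM1 (-3.99 ± 0.57, adjusted p = 0.000784), SMAD7 (-1.75 ± 0.21, adjusted p = 0.000279), TGFBR2 (-1.31 ± 0.14, adjusted p = 0.000159), TGFBI (-1.20 ± 0.25, adjusted p = 0.00658), ID4 (-1.12 ± 0.14, adjusted p = 0.000422) and BMP2 were lower with shBRG1 than with shMITF, and LTBP1 was higher (1.16 ± 0.30, adjusted p = 0.0167). Without shMITF replicate 2 the values fell under the fold threshold for BMP2 (-0.72, from -1.77 ± 0.48, adjusted p = 0.0222), LTBP1 (0.85) and ID4 (-0.96), GREM1 gave -3.24 without shMITF replicate 1, and the calls of BMP2 and LTBP1 were also lost without shBRG1 replicate 1 (adjusted p = 0.0755 and 0.0608) or replicate 3 (0.0705 and 0.0525), and that of BMP2 without replicate 2 (0.0809).

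With scramble shRNA the lines themselves differed in these genes. Of 41 tested, 21 were called between 501Mel shSCR1 and Hermes 3A shSCR (7 higher and 14 lower in 501Mel cells), against 41.1% of all genes (23.4% higher and 17.7% lower). On a scale comparable between genes, CPM per kb of exon, BAMBI (100.0 ± 5.52, mean ± SD, n = 3), FSTL1 (84.9 ± 1.77), BMPR2 (21.4 ± 0.620) and TGFBR1 (17.8 ± 0.616) were the highest pathway genes in 501Mel shSCR1. In Hermes 3A shSCR they were BAMBI (112 ± 2.88), ID2 (80.9 ± 2.70), FSTL3 (50.9 ± 3.24) and TGFBR2 (35.1 ± 0.654). There, FSTL1 at 29.5 ± 0.421 and ID3 at 29.8 ± 2.50 stood next to each other within their spread. Among the ligands of the 44 genes TGFB1 stood first in both lines, at 4.02 ± 0.0632 and 17.6 ± 1.33 CPM per kb, and the log2 difference of 501Mel minus Hermes 3A was -2.14 ± 0.20 (SE, adjusted p = 2.52e-05). TGFB2 went the other way (4.06 ± 0.17, adjusted p = 1.37e-12), as did CHRD (5.08 ± 0.24, adjusted p = 5.14e-12) and FST (4.81 ± 0.32, adjusted p = 3.02e-06). ID1, ID2 and ID3 were lower in 501Mel shSCR1 than in Hermes 3A shSCR (-2.07 ± 0.13, -4.44 ± 0.20 and -1.88 ± 0.12, SE), whereas ID4 was not called (-0.44 ± 0.22, adjusted p = 0.099). With shSCR2 as the 501Mel control, 16 of the 21 calls stood, 4 were lost and 1 turned. The shSCR2 samples of ID1 and ID2 lay below all Hermes 3A shSCR samples, while those of ID3 lay on both sides of them.

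**Figure D5:**
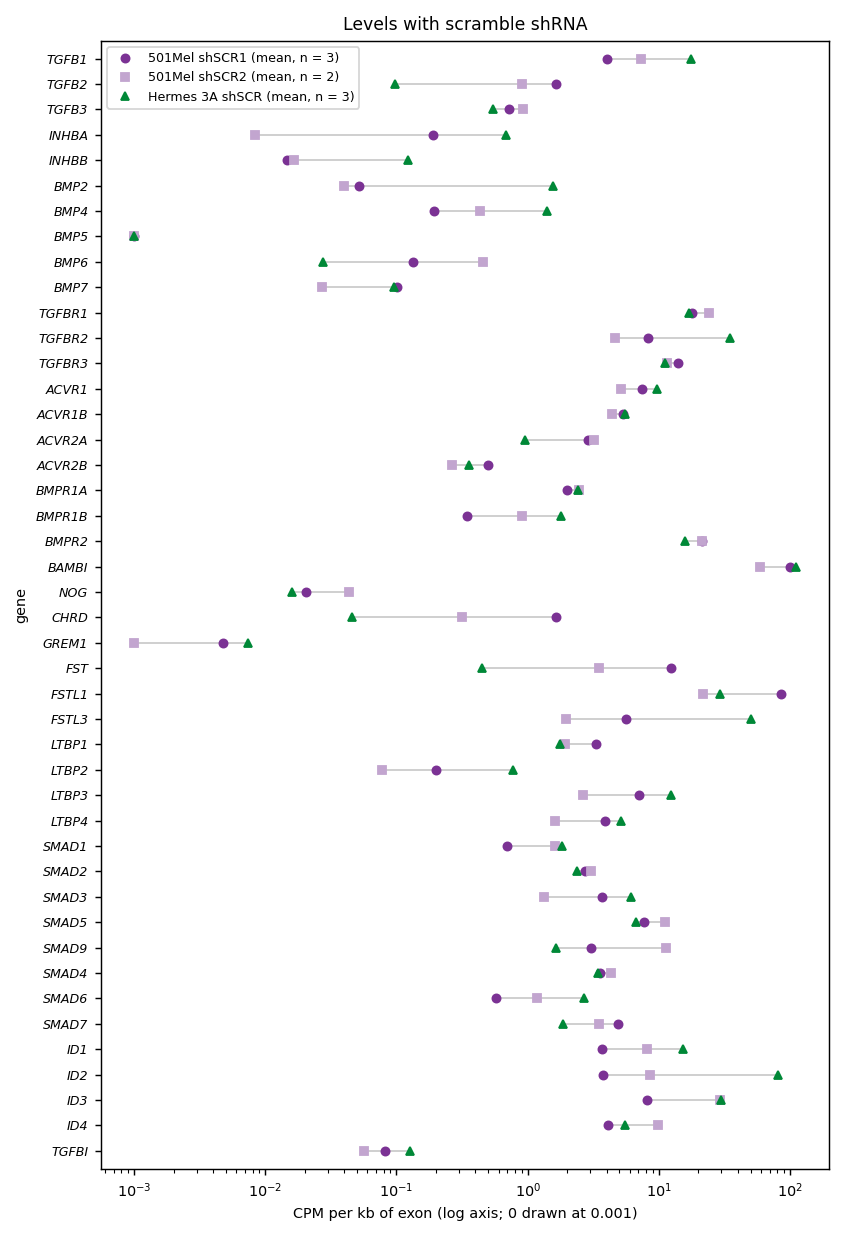
Mean CPM per kb of exon (log axis, 0 drawn at 0.001) of the 44 pathway genes in the 3 groups with scramble shRNA. BAMBI lies near 100 CPM per kb in 501Mel shSCR1 and Hermes 3A shSCR, while ID2, BMP2 and FSTL3 are higher and TGFB2, CHRD and FST lower in Hermes 3A cells.

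The 2 scramble groups of 501Mel cells were not interchangeable for these genes, a comparison added after the data were seen. Between shSCR2 and shSCR1, 33.0% of all genes (12.3% higher and 20.7% lower with shSCR2) and 20 of 39 pathway genes (10 higher and 10 lower) were called. ID1 (1.15 ± 0.14, adjusted p = 8.64e-05), ID2 (1.20 ± 0.21, adjusted p = 0.00139), ID3 (1.85 ± 0.15, adjusted p = 1.94e-05) and ID4 (1.28 ± 0.26, adjusted p = 0.00374) were higher with shSCR2, and INHBA (-4.68 ± 0.39, adjusted p = 7.97e-06), CHRD (-2.40 ± 0.15, adjusted p = 1.78e-06) and FSTL1 (-1.94 ± 0.08, adjusted p = 4.22e-07) were lower. How shSCR1 and shSCR2 samples differed in handling is not given in the sources used here. The ID genes thus started from a higher level in the shMITF experiment, and each experiment is given against its own control.

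Of 86 further pathway genes on 6 lists, 83 were found. Among the 60 tested with shBRG1 in 501Mel cells 18 rose and 10 fell, and of 51 tested with shMITF 13 rose and 2 fell (all genes: 39.1% and 8.99% called). In Hermes 3A cells 7 rose and 6 fell with shBRG1 of 51, and 7 rose and 4 fell with shMITF of 49 (all genes: 9.26% and 7.39% called). Of the TGF-beta targets, a list that shares COL1A1, COL1A2 and COL3A1 with the fibroblast markers, 9 of 14 rose and 1 fell with shBRG1 and 6 of 13 rose with shMITF in 501Mel cells, with median log2 fold changes of 1.96 and 1.71 (all genes: 21.7% and 5.59% called higher). Of 12 tested between the scramble groups, 7 of these targets were lower with shSCR2 than with shSCR1 (median -1.19, all genes: 20.7% called lower). The rise with shMITF is thus against a lower control. In Hermes 3A cells 3 of 14 rose in each knockdown and 2 fell with shBRG1. Of all genes there, 5.78% were called higher with shBRG1 and 3.35% with shMITF, and 3.47% lower with shBRG1. PMEPA1, a TGF-beta target that dampens SMAD signalling, rose in all 4 comparisons (3.10 ± 0.19, 1.47 ± 0.31, 1.47 ± 0.05 and 2.56 ± 0.29, SE, in the order of the first comparisons). FSTL4, a follistatin-like gene, fell in all 4 (-2.80 ± 0.10, -1.73 ± 0.40, -2.70 ± 0.41 and -2.23 ± 0.50). Between the 501Mel scramble groups PMEPA1 was called higher and FSTL4 lower with shSCR2, so that their changes with shBRG1 depend on the control. PMEPA1 had 17, 18 and 13 counts with shSCR1, 100 and 148 with shSCR2 and 166, 197 and 173 with shBRG1. FSTL4 had 593, 677 and 460 counts with shSCR1, 104 and 188 with shSCR2 and 108, 114 and 100 with shBRG1. THBS1, whose product thrombospondin can activate latent TGF-beta, rose in both Hermes 3A knockdowns, with 60.6 to 70.4 CPM with shBRG1 (2.58 ± 0.07, adjusted p = 1.48e-21) and 89.8 to 609.7 with shMITF, against 9.96 to 12.0 in the controls (4.73 ± 0.68, adjusted p = 0.00385). AMHR2, the receptor of anti-Müllerian hormone, fell in both 501Mel knockdowns, with 0.0591 to 0.169 CPM with shBRG1 against 4.61 to 5.03 (-5.53 ± 0.22, adjusted p = 7.49e-17) and 0.0661 to 0.0773 CPM with shMITF against 0.272 to 1.27 (-3.23 ± 0.90, adjusted p = 0.0414). The shMITF call rests on 3 and 4 counts against 39 and 20. AMHR2 was also called lower with shSCR2 than with shSCR1 (240, 243 and 172 counts), so the size of its fall with shBRG1 depends on the control.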

How the data were processed

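Total RNA depleted of ribosomal RNA and treated with duplex-specific nuclease was sequenced from 19 samples, and the nuclease step, which removes abundant cDNA, can compress high levels. The deposited values are raw read counts per Ensembl gene, which the authors made per sample after alignment to hg19. The submitters' processing notes list CASAVA 1.8, TopHat 1.4.1 and Bowtie 0.12.7. The counting program, annotation release and strand setting are not given in the sources used here, and without strand, reads of a gene and its antisense partner cannot be told apart: 12 of the 44 genes share exon bases with a gene on the opposite strand. Groups came from the sample labels.

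Each comparison was fitted over all genes with edgeR 4.0.16 in R 4.3.3 (TMM factors, filterByExpr, robust quasi-likelihood test, Benjamini-Hochberg adjustment), and differences between lines or knockdowns as contrasts of one fit. Scripts were tested on simulated data. Exon lengths came from GENCODE 29 and promoters from RefSeq (GRCh38.p14), with an entry for 41 of the 44 genes. Values in every sample are given for genes called in at least 1 of 4 knockdown comparisons with at least 100 counts on average in the higher group, and the 5 further pathway genes are those with the largest summed changes among 20 called in at least 2, of which 1 is not reported here. The members and lists were chosen with earlier results of these data known. Alternatives were library-size scaling, other filters, DESeq2 1.42.0, glmTreat, other controls, a replicate block, no fold threshold and leaving out each sample. With 2 or 3 samples a group, precision is limited by the spread between samples more than by depth.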

Additional observations from a re-analysis of the deposited data

Results flagged for a closer look

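All 24 values listed here are differences between the lines in the change of a gene (501Mel minus Hermes 3A, log2 scale), each past an adjusted p of 0.05 and a difference of 1 in the contrast of edgeR's quasi-likelihood test. For shBRG1 the change was higher in 501Mel cells for BMP4 (1.58), BMP6 (3.15), ID1 (1.68), ID2 (3.60), ID3 (2.03), ID4 (2.46) and TGFBI (2.24). It was lower for the ligands TGFB2 (-1.82), INHBA (-2.33), INHBB (-2.97) and BMP7 (-1.69) and for the receptors TGFBR1 (-1.47), TGFBR3 (-1.42) and BMPR2 (-1.38). It was also lower for the secreted regulators CHRD (-2.30), GREM1 (-4.00), FST (-2.24), FSTL1 (-2.36) and FSTL3 (-1.12) and for the latent binding proteins LTBP1 (-2.57), LTBP3 (-1.98) and LTBP4 (-1.34). The shBRG1 differences use shSCR1 as the 501Mel control and were not recomputed with shSCR2. For shMITF the change was lower for TGFB2 (-5.45) and higher for BMPR2 (1.56). Some of these rest on few counts or 1 sample: BMP6 gave 0.84 (adjusted p = 0.791) without Hermes 3A shSCR replicate 2, and CHRD gave -1.57 without Hermes 3A shBRG1 replicate 2. INHBB gave -1.90 (adjusted p = 0.356) without shSCR1 replicate 1, -5.78 without shBRG1 replicate 1 and adjusted p of 0.0754 and 0.0667 without shBRG1 replicates 2 and 3. GREM1, with at most 5 counts in any 501Mel sample, gave -5.24 without 501Mel shBRG1 replicate 3.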

How the results depend on the processing

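Of 1965 recomputed values of called genes 1834 kept direction and call, 127 kept the direction without the call and 4 turned. These counts include settings that could not lose a call, such as no fold threshold. The turned values were CHRD with shBRG1 against shSCR2 (0.30), INHBA with shMITF against shSCR1 (-2.02) and against both scramble groups pooled (-1.32), and FSTL1 between the lines with shSCR2 as the 501Mel control (-0.43). The cause was not tested. Counts are given below as higher and lower genes. With no fold threshold they were 17 and 21 with shBRG1 in 501Mel cells, 22 and 10 with shBRG1 in Hermes 3A cells, 13 and 25 for its difference between lines, 8 and 11 between the Hermes 3A knockdowns and 15 higher between the controls. For all genes, in the same order, they were 8442 and 8022 of 20514 and 4862 and 4934 of 17222 tested. They were then 5384 and 7189 of 21697, 2076 and 2144 of 17652, and 7823 higher of 20354. With glmTreat, which tests against the fold threshold, they were 2 and 1 with shMITF in 501Mel cells, 5 higher with shBRG1 and 3 and 0 with shMITF in Hermes 3A cells, 0 higher for the shMITF difference between lines, 1 and 9 between the 501Mel knockdowns and 0 and 2 between the Hermes 3A knockdowns. For all genes they were 141 and 82 of 17701, 358 higher of 17222 and 83 and 102 of 16508 tested. They were then 46 higher of 19284, 1115 and 1942 of 22255 and 187 and 64 of 17652. For shMITF in 501Mel cells pooled scramble groups gave 5 and 1, at least 10 counts in every sample gave 1 lower and shSCR1 as control gave 8 lower. All genes gave 327 and 248 of 19569, 491 lower of 15496 and 3376 lower of 19179 tested. For shBRG1 in 501Mel cells pooled scramble groups kept 13 of the calls and lost 7. The lost calls were INHBA (adjusted p = 0.125), CHRD (0.0851), BMP4 (0.0821), SMAD6 (0.0897), LTBP1, BAMBI and BMPR2. For the shMITF difference between lines shSCR1 gave 10 and 9, library sizes 2 higher, DESeq2 5 and 2, no filter 3 higher and at least 10 counts 0 lower. For all genes these were 1361 and 1873 of 20280, 375 higher of 19284 and 618 and 286 of 19284 tested. The last settings gave 479 higher of 32570 and 109 lower of 13246. Library sizes gave 10 higher between the 501Mel knockdowns, and no filter gave 0 higher between the Hermes 3A knockdowns. For all genes these were 3585 higher of 22255 and 896 higher of 32713. Sample numbers do not pair the samples. A replicate block gave 3 higher for the shMITF difference between lines (425 of 19284 for all genes). It gave an adjusted p of 0.0522 for INHBA with shMITF in Hermes 3A cells.

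Leaving out 1 sample gave 1 to 2 lower genes with shMITF in 501Mel cells (1 without shMITF replicate 1). It gave 1 to 3 higher genes for the shMITF difference between lines (2 without shSCR2 replicate 2, 501Mel shMITF replicate 1 or Hermes 3A shMITF replicate 3, and 3 without Hermes 3A shMITF replicate 1 or 2). Between the 501Mel knockdowns it gave 2 to 8 higher genes (2 without shSCR2 replicate 1). Between the Hermes 3A knockdowns it gave 0 to 4 higher genes (4 without shMITF replicate 1, and 0 without shMITF replicate 2 or shBRG1 replicate 1 or 3). Genes with few counts, such as INHBA with shSCR2, GREM1 and NOG, have the least certain values.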
